A study of Mus musculus with 2 samples.

Results

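The genes for apolipoproteins and lipoprotein assembly were followed through the cells of the mouse yolk sac at E8.75. They were chosen by name, as 10 of the 30970 gene rows in the count matrices: Apob and Mttp, Apoa1, Apoa2, Apoa4 and Apom, and Apoc1, Apoc2, Apoc3 and Apoe. Levels are unique molecular identifiers (UMIs, counted transcripts) summed over the cells of a class in each sample and scaled to 1000000 UMIs, written CPM. The study asked how ciliated cells of the yolk sac differ in transcriptome from the visceral endoderm lineage, which lacks cilia. All animals carried Ttr-Cre/+ and R26lsl-rtTA-EGFP/+, so there was a single genotype and no treated group. In this model the Ttr promoter drives Cre recombinase, mainly in the endoderm lineage, and Cre switches on rtTA and EGFP. The tissue was dissociated, the cells of 3 samples were tagged with CellPlex oligonucleotides, and the pool gave 1 library of transcripts and 1 of tags. The samples (Ctrl1, Ctrl2 and Ctrl3) are called tagged samples 1, 2 and 3.

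The endoderm of the visceral yolk sac takes up maternal nutrients and secretes lipid and plasma proteins to the embryo before its liver can do so. A lipoprotein is built inside the cell when ApoB is loaded with lipid by the microsomal triglyceride transfer protein, which Mttp encodes, and is then exported. Smaller apolipoproteins ride on the finished particles, start high-density lipoprotein, or steer the particles to lipases and receptors.

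Cells with at least 500 detected genes and at most 10% mitochondrial UMIs were kept, 1740 of 1817. A cell was placed in a class by the share of its UMIs from a few gate genes, none of them an apolipoprotein or Mttp. The gates were 0.3% for Afp, Cubn and Ttr together (endoderm), 3% for 7 globin genes (erythroid), 0.04% for Cdh5, Ctla2a and Plvap (endothelium) and 0.03% for Hand1, Vcan and Foxf1 (mesoderm). Endoderm held 551 cells (171, 213 and 167 in tagged samples 1, 2 and 3). There were 629 erythroid cells (81, 212 and 336), 115 of endothelium (36, 37 and 42) and 200 of mesoderm (60, 71 and 69). Another 196 cells passed no gate. The 49 cells that passed more than 1 gate were dropped, and these had a median of 74864 UMIs, against 47422 over all kept cells. The 10 genes together took a median of 0.812% of the UMIs in the 25 cells just over the endoderm gate (0.3 to 0.4%) and 0.419% in the 14 cells just under it (0.2 to 0.3%).

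The tagged samples summed to 22007477, 32890946 and 33114758 UMIs, with medians of 45539 to 47786 UMIs per cell, and no barcode occurred in more than 1 of them. Marker genes outside the gates were read in each class. A list of 10 visceral endoderm markers outside the gates, among them Amn, Rbp4 and Hnf4a, summed to 13596 to 16289 CPM in endoderm and to 253 to 625 in the other classes. Most of that sum was Rbp4, and Sox17 of the list stood at 52.8, 46.3 and 43.2 in endothelium and at most at 22.8 in endoderm. In mesoderm, Epcam stood at 42.4 to 91.0 and Lrp2 at 60.5 to 79.7, below the 220 to 265 and 177 to 228 of endoderm. The endothelial list reached 1406 to 1507 in endothelium and at most 159 in the other classes. Markers of other cell types were present too. The parietal endoderm list summed to 994 to 1267 in endothelium, 532 to 1144 in mesoderm and 617 to 712 in endoderm. Most of it was Sparc, at 968, 1216 and 1229 in endothelium. In the mesoderm of tagged sample 2, Fst of that list stood at 69.6 and Srgn at 33.5. The megakaryocyte list summed to 41.6 to 61.8 in endothelium, from Itga2b and Pf4, with Gp9, Ppbp and Gp1bb at 0. The trophoblast list summed to 49.6, 35.4 and 17.5 in the mesoderm of tagged samples 1, 2 and 3, with Tpbpa, Prl3d1 and Prl2c2 at 0. Their part in the results was not tested. Each tagged sample held cells with Xist and cells with Y-linked transcripts, although the design text speaks of 3 embryos. How many embryos stand behind each tag is therefore not known here, and p-values measure the spread between tagged samples. 

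The member genes lie at 6 places in the mouse genome (GRCm38, GENCODE M21). Apoa1, Apoc3 and Apoa4 stand together on chromosome 9, with Apoa5 completing a cluster of 43340 bases from 46228580 to 46271919. In it Apoa1 and Apoc3 are on opposite strands, with 2466 bases between their annotated ends. Apoc2, Apoc1 and Apoe stand on the minus strand of chromosome 7, with Apoc4 between them, in a cluster of 27610 bases from 19671579 to 19699188. The other genes are alone: Apob on chromosome 12 from 7977648 to 8016835, Mttp on chromosome 3 from 138089854 to 138144968, Apoa2 on chromosome 1 from 171225054 to 171226379 and Apom on chromosome 17 from 35128997 to 35132050. Annotated genes overlap Apoa4 (Gm47528, Gm10680), Apoc2 (Gm44805) and Mttp (Gm43691, Trmt10a). The sources used here do not say how shared reads were counted, so these 3 values are less certain.

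RefSeq promoters (GRCm38.p6, from 250 bases before to 50 bases after a transcript start) were in the sequence table for 8 of the members, not for Apoc1 and Apoc3. They are shown because each of the 8 genes was higher in endoderm than in the other classes. HNF4A, a nuclear receptor, is also a known regulator of apolipoprotein genes. The letters CAAAGNNCA, as bound by HNF4A, were found on either strand in 2 of the 8 genes, Apoa4 and Apob, against 7.27% of all genes in the table. An HNF1-type motif was found in 0 of the 8, against 0.470% of genes. The TATA letters TATAAA were found in Apoa2, Apob and Apoe, against 15.7% of genes. A match describes the letters only. Each line below gives 25 bases on either side of a CAAAGNNCA match, 5′ to 3′ on the plus strand, with the match in capitals. That of Apob is the reverse complement of the searched letters.
Apoa4, chr9:46240637-46240695 (+): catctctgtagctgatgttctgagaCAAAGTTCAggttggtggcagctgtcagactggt
Apob, chr12:7977549-7977607 (+): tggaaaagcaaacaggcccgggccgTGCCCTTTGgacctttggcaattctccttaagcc

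Endoderm carried the whole set. Together the 10 genes took 1.87%, 2.14% and 1.95% of all endoderm UMIs in tagged samples 1, 2 and 3 (1.99% ± 0.138, SD, n = 3). The share was 0.150% ± 0.0168 in endothelium, 0.0634% ± 0.0118 in mesoderm and 0.0383% ± 0.00172 in erythroid cells. With edgeR's quasi-likelihood test on the summed counts and Benjamini-Hochberg adjustment at 0.05, all 10 genes were higher in endoderm than in each of the other classes. Such a call was common: 33% of the 11010 genes tested were higher in endoderm than in mesoderm, 31.9% of 10681 than in endothelium and 41.8% of 11037 than in erythroid cells. In either direction the shares called were 63.7%, 60.6% and 77.9%. The size set the members further from the middle of the genome. Their median log2 difference was 5.42 against mesoderm, 5.47 against endothelium and 5.56 against erythroid cells, where the median of all genes tested was 0.02, 0.05 and 0.05. A list of other endoderm genes, the reference genes used below, had medians of 5.23, 5.55 and 5.28 in the same order. Differences of this size were thus not particular to the members. In each of these 3 comparisons, all 10 genes kept direction and call under the 16 alternative settings tried. Scaling by library size alone shifted the median of all genes by -0.24, -0.13 and 0.21 log2 units. The share of calls that were higher in endoderm then went from 51.9% to 37.6% against mesoderm, the only one of the 3 to move by over 10 percentage points.

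**Figure D1:**
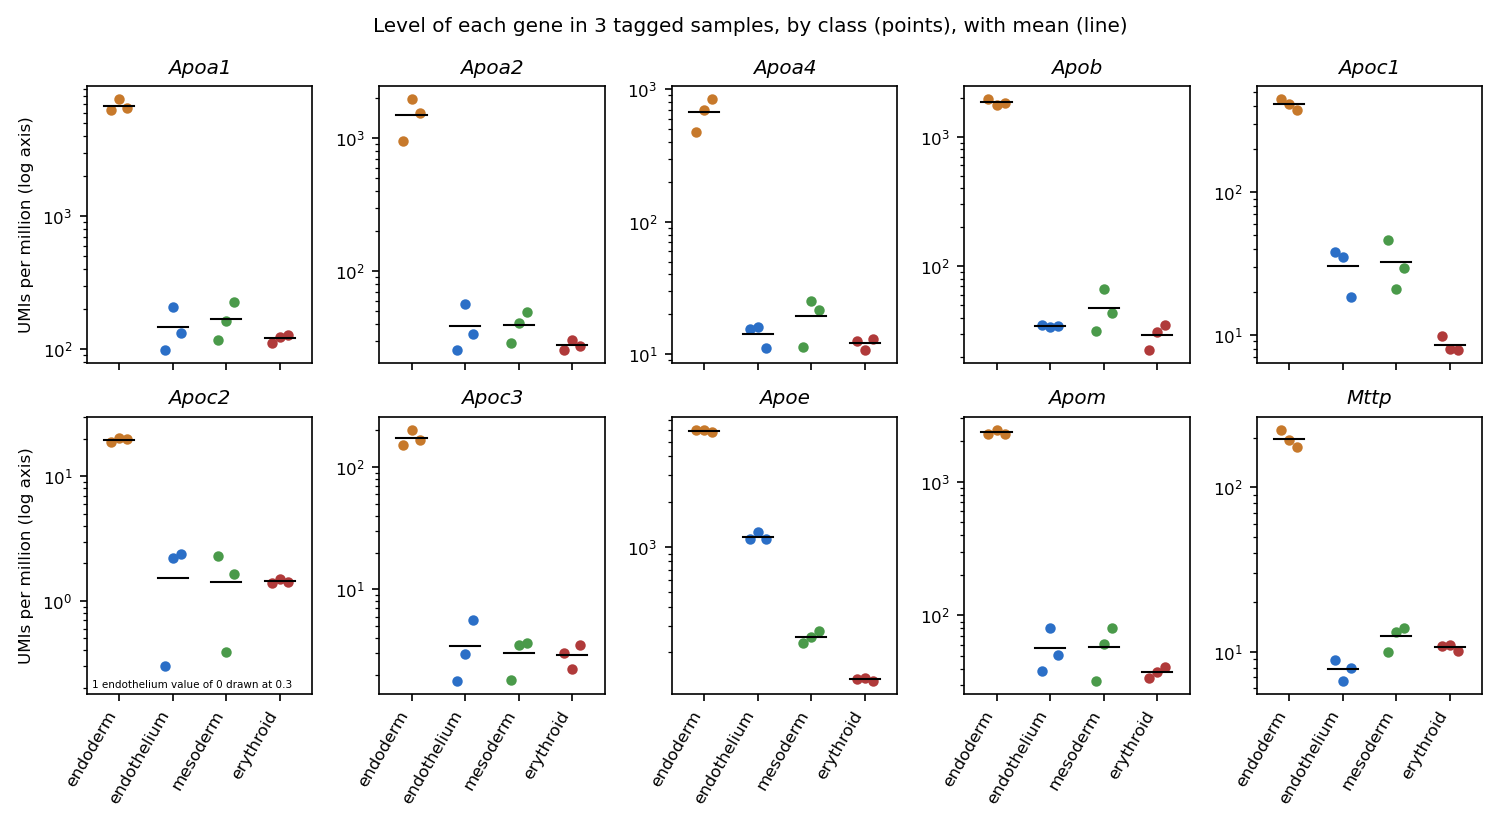
CPM (log axis, separate scale for each gene) for the 10 genes in endoderm, endothelium, mesoderm and erythroid cells, with 1 point for each of 3 tagged samples and a line at their mean. The Apoc2 value of 0 in endothelium is drawn at 0.3. All 3 endoderm points lie above every point of the other classes for each gene, and Apoe alone has 3 further separate steps below endoderm, of which the lowest turns direction with doubled gates.

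Apob encodes the large structural protein that stays with a particle for its life. In endoderm it stood at 1970, 1743 and 1807 CPM, and in mesoderm at 31.4, 66.5 and 43.6. The lowest endoderm sample was far above the highest mesoderm sample, and edgeR gave a log2 difference of 5.51 (SE 0.19, adjusted p = 1.21e-09). Against endothelium, at 33.8 to 35.0, the difference was 5.86 (SE 0.09, adjusted p = 3.36e-13). Against erythroid cells, at 22.5 to 35.3, it was 5.68 (SE 0.12, adjusted p = 1.03e-11).

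Mttp, which loads lipid onto ApoB, was at 224, 193 and 175 CPM in endoderm. It was at 10.9, 10.9 and 10.1 in erythroid cells, 10.0, 13.2 and 13.9 in mesoderm and 8.90, 6.62 and 8.00 in endothelium. Endoderm stood apart from all 3, by log2 differences of 4.01 (SE 0.10), 4.22 (SE 0.14) and 4.76 (SE 0.17). The adjusted p from edgeR was at most 9.86e-10. Per Apob UMI, Mttp gave 0.107 ± 0.00893 UMIs in endoderm, against 0.374 ± 0.101 in erythroid cells, 0.278 ± 0.0690 in mesoderm and 0.227 ± 0.0296 in endothelium (SD, n = 3). The endoderm ratios (0.0969 to 0.114) did not overlap those of the other classes (0.196 to 0.485). These ratios carry the small counts of the other classes, with 34 Mttp UMIs in endothelium and 90 in mesoderm.

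Apoa1 encodes the main protein of high-density lipoprotein. It reached 6265, 7686 and 6479 CPM in endoderm. The other classes overlapped each other, at 117 to 225 in mesoderm, 98.5 to 208 in endothelium and 111 to 127 in erythroid cells. The log2 differences were 5.58 (SE 0.20), 5.68 (SE 0.21) and 5.60 (SE 0.11), or 47.8-fold, 51.3-fold and 48.5-fold, with an adjusted p from edgeR of at most 1.74e-09.

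Apoa2, the second protein of high-density lipoprotein, stood at 953, 1979 and 1532 CPM in endoderm. Tagged sample 1 was the low one. In the other classes it ran from 25.5 to 56.6, with overlapping ranges, and the log2 differences were 5.48 (SE 0.29), 5.43 (SE 0.31) and 5.52 (SE 0.26) against mesoderm, endothelium and erythroid cells.

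Apoa4, an apolipoprotein made with fat-rich particles in the intestine, was at 476, 702 and 852 in endoderm, again lowest in tagged sample 1. Elsewhere it ran from 10.7 to 25.3 with overlapping ranges, and the log2 differences were 5.35 (SE 0.27), 5.68 (SE 0.26) and 5.59 (SE 0.22). The adjusted p from edgeR was at most 2.93e-08 for Apoa2 and Apoa4 in these comparisons.

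Apom encodes a carrier of sphingosine 1-phosphate on high-density lipoprotein. Its endoderm levels were close together, at 2276, 2450 and 2280 CPM. The other classes lay between 32.3 and 80.9 and overlapped. The log2 differences were 5.57 (SE 0.22) against mesoderm, 5.51 (SE 0.17) against endothelium and 5.71 (SE 0.08) against erythroid cells, with an adjusted p from edgeR of at most 3.11e-09.

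The ApoC proteins are small and exchange between particles. Apoc3, which restrains lipoprotein lipase and remnant uptake, was at 152, 202 and 166 in endoderm, and at 1.78 to 5.60 in the other classes. Its log2 difference of 6.07 (SE 0.23) against mesoderm was the largest of the set there, on 22 mesoderm UMIs. It was 5.85 (SE 0.27) against endothelium and 5.64 (SE 0.18) against erythroid cells.

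Apoc2, the activator of lipoprotein lipase, gave 18.8, 20.2 and 19.9 CPM in endoderm. Only 6 UMIs were counted in endothelium, 10 in mesoderm and 46 in erythroid cells. Tagged sample 1 had 0 UMIs in endothelium, which allows up to 1.78 CPM by counting error alone. The log2 differences were 3.92 (SE 0.41), 4.05 (SE 0.31) and 3.54 (SE 0.16) in that order.

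Apoc1, which inhibits lipid transfer and uptake, was at 453, 416 and 376 in endoderm. It was at 46.4, 21.0 and 29.4 in mesoderm, 38.0, 35.3 and 18.4 in endothelium and 9.73, 7.94 and 7.81 in erythroid cells. Mesoderm and endothelium overlapped, and both lay above the erythroid samples. Endoderm was higher by 3.94 (SE 0.19), 3.86 (SE 0.17) and 5.44 (SE 0.10) log2 units. The highest adjusted p among the 3 Apoc genes in the endoderm comparisons was 3.32e-06, for Apoc2 against endothelium.

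Apoe encodes the ligand by which remnant particles bind their receptors. In endoderm it stood at 5956, 6025 and 5767 CPM. In endothelium it was at 1130, 1254 and 1125, in mesoderm at 230, 251 and 277, and in erythroid cells at 133, 134 and 128. The 4 classes formed 4 steps with no overlap, the only member of which this held with these gates. With all gates doubled the lowest step turned, with means of 181 in mesoderm and 205 in erythroid cells. The difference of endoderm from endothelium was the smallest of any member in that comparison, at 2.47 log2 units (SE 0.06, 5.52-fold, adjusted p = 8.05e-12 by edgeR). Against mesoderm it was 4.79 (SE 0.08) and against erythroid cells 5.28 (SE 0.05).

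Low counts of endoderm transcripts in the other classes were read against other endoderm genes. Each class level was divided by the endoderm level of the same tagged sample, for the members and for a list of reference genes made in endoderm. The 16 reference genes at 20 or more CPM in endoderm, such as Rbp4, Amn, Fgb and Trf, had medians of 2.27% in erythroid cells, 2.45% in endothelium and 3.24% in mesoderm. The medians over the 10 members were 1.95%, 2.49% and 2.79%. The 3 endoderm gate genes lay at 1.44 to 2.34% in erythroid cells, 1.80 to 2.52% in endothelium and 1.83 to 2.79% in mesoderm, where the gates themselves hold them low.

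Most members sat in a narrow band. Apoa1 had 1.78% ± 0.176 of its endoderm level in erythroid cells, 2.11% ± 0.570 in endothelium and 2.49% ± 0.862 in mesoderm (SD, n = 3). Apoa2, Apoa4, Apob, Apoc3 and Apom had means between 1.62% and 2.84% in every class. At this level, counts in a class are not read as expression by that class.

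4 members stood outside that band of 1.62% to 2.84% in at least 1 class. The band is the range of the remaining members' own means, not a separate measure of free RNA. The reference median in mesoderm, 3.24%, lay above it too. Apoe reached 19.0%, 20.8% and 19.5% of its endoderm level in the endothelium of the 3 tagged samples (19.8% ± 0.951), against 2.23% ± 0.00810 in erythroid cells and 4.28% ± 0.486 in mesoderm. The highest reference gene in endothelium, the metal transporter Slc39a8, had 19.6%, and the next, the endocytic adaptor Dab2, had 9.93%. Apoc1 was at 7.25% ± 2.05 in endothelium and 7.70% ± 2.61 in mesoderm but at 2.04% ± 0.125 in erythroid cells. With all gates doubled its mean mesoderm level went from 32.3 to 14.3 CPM. Apoc1 in mesoderm was highest in tagged sample 1, as was the trophoblast marker list, whose part was not tested. Tagged samples 2 and 3 went in opposite orders, at 21.0 and 29.4 CPM for Apoc1 and 35.4 and 17.5 for the list. Mttp was at 5.43% ± 0.486, 3.99% ± 0.572 and 6.42% ± 1.77 in erythroid cells, endothelium and mesoderm. Apoc2 had means of 7.32 to 7.66% in the 3 classes, on its few UMIs. Mttp and Apoc2 overlap other annotated genes, as does Apoa4, which lay in the band. The part of shared reads was not tested. Reference genes also exceeded the band, with Slc39a8 at 102% in erythroid cells and the glypican Gpc3 at 41.1% in mesoderm. Dab2 was at 9.59%, Ambp at 6.79%, Cldn6 at 6.17% and Lgmn at 5.28% in mesoderm, and Lgmn at 8.76% and Gpc3 at 7.36% in endothelium. In these 2 classes Apoc1, Apoc2 and Mttp, and Apoe in mesoderm, thus lay below the highest reference genes. Apart from Slc39a8, Dab2, Lgmn and Gpc3, the highest reference gene was Serpinf2 in endothelium, at 4.15%, and Ambp in mesoderm. Apoc1 and Apoc2 lay above these. Expression of the reference genes by the other classes was not tested. In erythroid cells the highest reference gene after Slc39a8 was Ambp, at 2.90%.

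**Figure D2:**
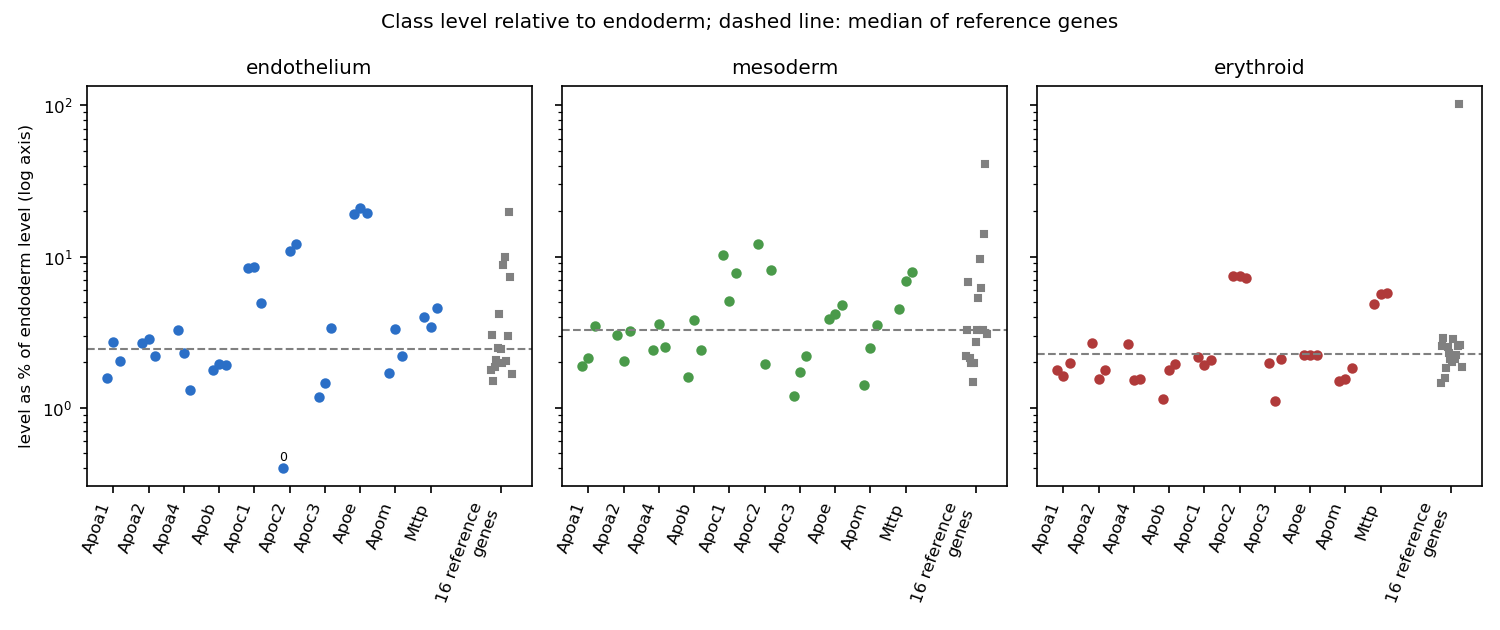
Level in endothelium, mesoderm and erythroid cells as a percent of the endoderm level in the same tagged sample (log axis), with 3 points for each of the 10 genes and a square for the mean of each of 16 endoderm reference genes (Apoc2 at 0 in 1 endothelium sample is marked). The dashed line is the reference median, 2.45%, 3.24% and 2.27% from left to right, and Apoe in endothelium stands near 20.

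Apoe in endothelium was followed into single cells, thinned to 20000 UMIs each. Of 115 endothelial cells, 31 had fewer and were left out. Apoe was found in all 84 remaining cells (100%, exact 95% binomial interval 95.7 to 100, counting error only) and in 114 of the 115 cells without thinning. The median was 22.5 Apoe UMIs per cell, with 12 at the 10th percentile and 37 at the 90th. The means in tagged samples 1, 2 and 3 were 23.8, 24.8 and 21.6. In 83 of the 84 cells Apoe exceeded Apoa1, whose median was 2. The counts were spread over the whole class.

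Erythroid cells, thinned alike, had a median of 2 Apoe UMIs and of 2 Apoa1 UMIs, and 71 of 616 cells had no Apoe. Mesoderm had a median of 3 Apoe UMIs. Summed over cells, the ratio of Apoe to Apoa1 was 0.951, 0.784 and 0.890 in endoderm and 1.20, 1.08 and 1.01 in erythroid cells. It was 11.5, 6.03 and 8.47 in endothelium, and 1.96, 1.54 and 1.23 in mesoderm. The endothelium ratio was the highest of the 4 classes in each tagged sample. The part of free RNA in these counts was not tested.

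Macrophages also make Apoe, so their markers were read in the endothelial class. Of 7 macrophage markers, Ptprc, C1qa and C1qb were at 0 and 4 were detected, with a summed level of 89.6 to 161 CPM. Most of it came from Mrc1, at 80.7, 138 and 120, which vascular endothelium of the embryo also expresses. The same list summed to 14.7 to 18.4 in endoderm and to at most 2.80 in the mesoderm and erythroid classes. The part of macrophages in the Apoe level of endothelium was not tested.

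**Figure D3:**
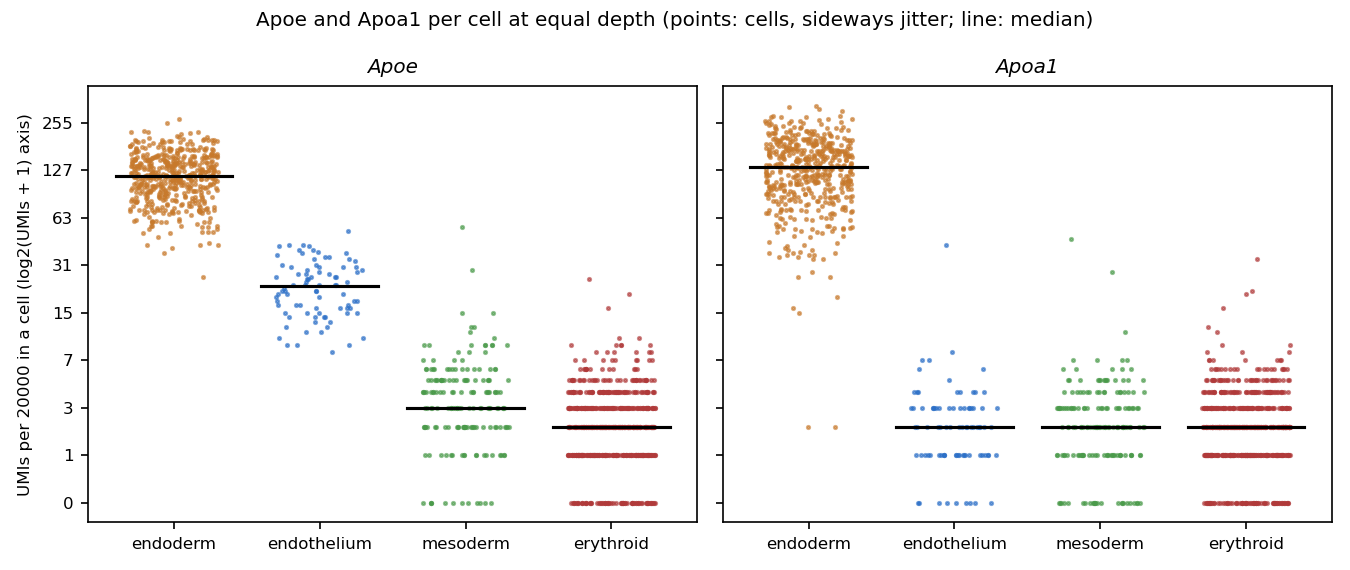
Apoe (left) and Apoa1 (right) UMIs per cell after thinning to 20000 UMIs (log2(UMIs + 1) axis), 1 point per cell with sideways jitter and a line at the median, by class. Endothelial cells lie around 22.5 for Apoe and around 2 for Apoa1, while erythroid cells lie around 2 for both.

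Between the classes other than endoderm, 1 to 3 members passed the test in each comparison. In mesoderm against endothelium, 8 were tested and only Apoe passed, lower in mesoderm by a log2 difference of -2.33 (SE 0.08, adjusted p = 1.2e-09 by edgeR), where 35.6% of 9120 genes passed in either direction. In endothelium against erythroid cells, 3 of 8 passed, where 66% of 9256 genes did. Apoe was higher in endothelium by 2.84 (SE 0.07, adjusted p = 3.8e-11) and Apoc1 by 1.60 (SE 0.23, adjusted p = 4.43e-05). Mttp was lower in endothelium, by -0.73 (SE 0.22, adjusted p = 0.0109). That Mttp call was lost in 6 of 16 alternatives, with a log2 difference of -0.42 and an adjusted p of 0.148 under library size scaling.

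In mesoderm against erythroid cells, 2 of 9 passed, where 71% of 9713 genes did. That count rested on the settings: 7 of 9 passed under library size scaling and 5 of 9 with halved gates. Apoc1 was higher in mesoderm by 1.53 (SE 0.24, adjusted p = 0.000143) and Apoe by 0.53 (SE 0.07, adjusted p = 3.37e-05). Doubling all gates ended both calls, with 0.30 for Apoc1 (adjusted p = 0.181) and -0.50 for Apoe (adjusted p = 0.131), which is the opposite sign. Scaling by library size alone moved the median of all genes by 0.12 in mesoderm against endothelium, 0.41 in mesoderm against erythroid cells and 0.31 in endothelium against erythroid cells. The share of calls that were higher in the first class went from 45.0% to 57.8%, from 53.0% to 75.7% and from 51.7% to 69.3%.

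Within endoderm, the members differed in how far the tagged samples were apart. Apoe varied least, with the highest sample 1.04-fold over the lowest, and Apoc2 (1.07), Apom (1.08) and Apob (1.13) were also close. Apoa2 varied most, by 2.08-fold, followed by Apoa4 (1.79), Apoc3 (1.33), Mttp (1.28), Apoa1 (1.23) and Apoc1 (1.20). Apoa1, Apoa2, Apoa4, Apoc2, Apoc3 and Apom were all lowest in tagged sample 1. Apob, Apoc1 and Mttp were highest there. The gate genes moved as well in that sample: Afp was lowest, by 2.28-fold from the highest sample, and Ttr was lowest, while Cubn was highest. The part of the samples' stage or cell makeup in these differences was not tested.

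Endoderm cells were then compared at equal depth, 20000 UMIs per cell, which 505 of the 551 cells reached. The summed share of the 10 genes had a median of 2.01%, with 1.19% at the 10th percentile and 2.78% at the 90th. Apoe and Apom were the most even of the genes with a median above 10 UMIs. Apom had a median of 45 UMIs (28 and 67 at the 10th and 90th percentiles) and Apoe 117 (69 and 174). Apob had 35 (18 and 57.6) and Apoa1 132 (62 and 215).

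Apoa2 and Apoa4 were the uneven ones. Apoa2 had a median of 28 UMIs with 7 and 54 at the 10th and 90th percentiles, a 7.71-fold range, and Apoa4 had 11 with 3 and 27, a 9-fold range. Part of that lay between samples, but within tagged sample 3 alone Apoa4 ran from 3 to 33.7. The remaining genes were counted thinly, at medians of 8 for Apoc1, 4 for Mttp, 3 for Apoc3 and 0 for Apoc2.

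Nearly every endoderm cell had most of these transcripts. Apoa1, Apob, Apoe and Apom were found in all 505 cells, Apoc1 in 503, Apoa2 in 498 and Apoa4 in 495. Apoc2 was found in 160 (31.7%), and in 345 of 551 cells without thinning. In erythroid cells the thinned counts gave a UMI in 542 of 616 cells for Apoa1, 108 for Apoa4 and 20 for Apoc2. The part of free RNA in them was not tested. The median depth before thinning was 56338 UMIs in endoderm and 47771 in erythroid cells.

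**Figure D4:**
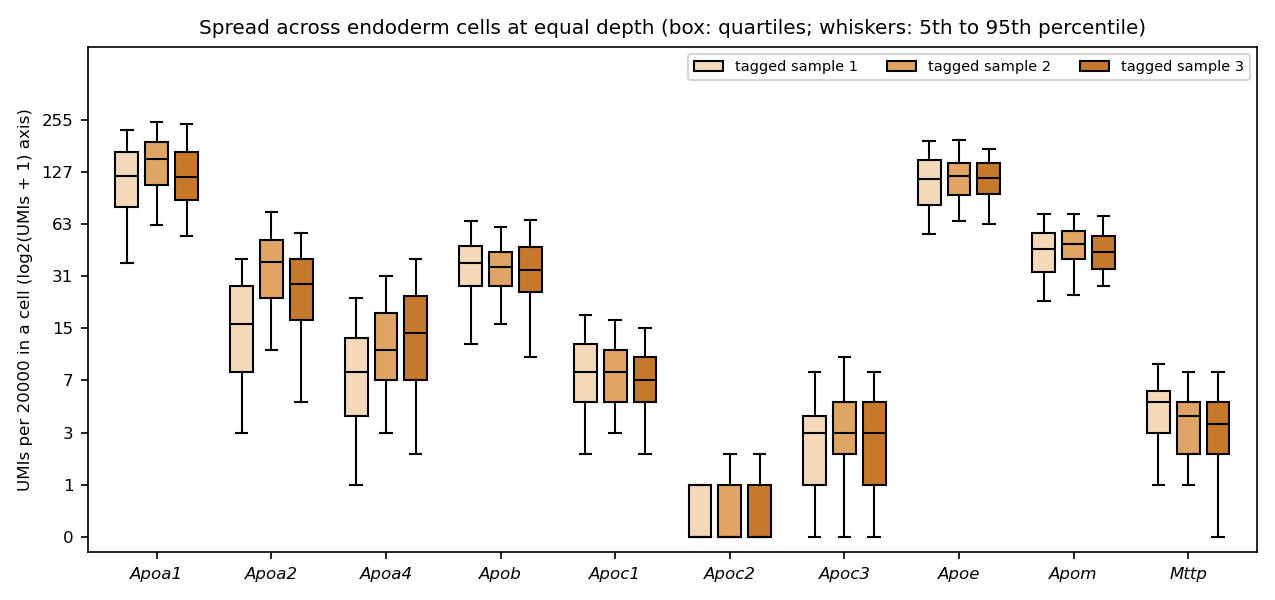
UMIs per endoderm cell after thinning to 20000 (log2(UMIs + 1) axis) for the 10 genes in tagged samples 1, 2 and 3. Boxes give quartiles with the median, and whiskers the 5th and 95th percentiles. Apoa2 and Apoa4 are lowest in tagged sample 1, while the Apoe boxes are level at medians of 116 to 120.

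Levels were also compared between shallow and deep endoderm cells. The 46 endoderm cells under 20000 UMIs had a median of 7989 UMIs and 1.94% mitochondrial UMIs, against 58526 and 2.42% in the rest. The samples differed in this. In tagged samples 1, 2 and 3 the low cells had medians of 7028, 6185 and 12742 UMIs. Their mitochondrial medians were 1.18%, 1.23% and 2.93%, against 2.57%, 2.35% and 2.43% in the rest. Apob was at 2943 CPM there and at 1808 in the rest. By tagged sample the low cells had 3411, 1939 and 2942, each above the 1941, 1742 and 1786 of the other cells. The remaining members were within 1.5-fold between these cell groups when samples were summed, but not in each sample. In the 11 low cells of tagged sample 2, Apoa1 was at 3965 against 7707, Apoe at 3679 against 6038 and Apom at 1392 against 2456. Apoc2 was at 12.4 against 20.2 there, on 1 UMI, and Mttp in tagged sample 3 was at 293 against 173.

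Across endoderm cells, Pearson correlations were computed on log2(UMIs per 10000 + 1) within each tagged sample and averaged over the 3. They are descriptions, since all cells of a sample share a library and depth was made equal. Apoa1, Apom and Apoe formed the tightest trio, with r = 0.74 for Apoa1 with Apom, 0.70 for Apoa1 with Apoe and 0.64 for Apoe with Apom. Apoa1 and Apoa2 followed with 0.52, and Apoa2 and Apoa4 with 0.49. Among neighbours in the genome, Apoc3 had 0.37 with Apoa1, its highest with any member, and 0.08 with Apoa4, and Apoc1 had 0.33 with Apoe. Apoc3 and Apoc1 were thinly counted, which limits their r. Apob and Mttp had 0.31, while Mttp had at most 0.10 with any other member. Apoc2, with few UMIs, had at most 0.10 with any member.

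These values rested in part on the gates. All gates were doubled together, so cells that passed more than 1 gate before could enter endoderm. That gave 461 endoderm cells at this depth, and the median over the 45 pairs fell from 0.22 to 0.09. The pairs above 0.3 went from 17 to 6. The trio stayed at 0.63, 0.67 and 0.58, and Apoa2 with Apoa4 at 0.37. Apob with Mttp was 0.31 under both gate settings and 0.20 at 10000 UMIs per cell, whereas Apob with Apoa1 went from 0.33 to 0.02 with doubled gates.

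**Figure D5:**
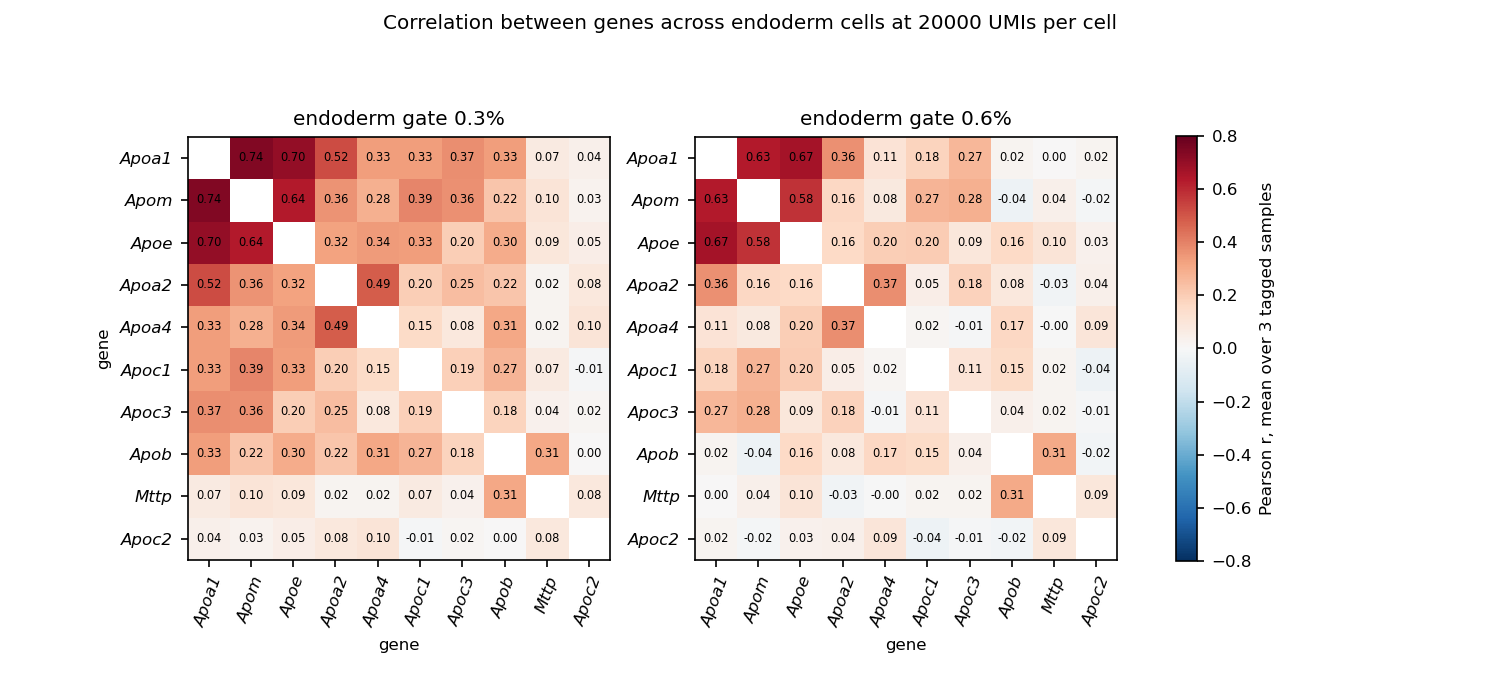
Mean Pearson r over 3 tagged samples for each pair of genes across endoderm cells at 20000 UMIs. The endoderm gate was 0.3% (left, 505 cells), or all gates were doubled, with endoderm at 0.6% (right, 461 cells). Apoa1, Apom and Apoe stay the darkest block in both panels, and Apob with Mttp has 0.31 in both, against 0.20 at 10000 UMIs per cell.

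Each member was also compared with 5634 genes outside the set detected in at least 25% of the thinned endoderm cells, and the likest gene is named where the mean r was at least 0.3, which left out Apoc2. Members themselves were not candidates. Apoe and Apom had higher r with Apoa1, and Apoa4 with Apoa2 (0.49), than with the genes named here. Apoa1 had 0.74 with Apom, the same as with its named gene. Apoa1 was likest to Rbp4, the retinol carrier (0.74), as was Apoc3 (0.38). Apoe was likest to Amn, the partner of cubilin in protein uptake (0.62). Apob was likest to the glucose transporter gene Slc2a3 (0.63), and Mttp to the sulfate transporter gene Slc13a4 (0.31). Apom (0.67) and Apoc1 (0.42) were likest to Ttr, and Apoa2 (0.63) and Apoa4 (0.44) to Afp. Ttr and Afp belong to the endoderm gate, so those likenesses partly restate the choice of cells.

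The machinery around the particles was read from lists of pathway genes in the fits above, with endoderm against mesoderm, endothelium and erythroid cells given in that order. Over all genes, 30.6%, 28.7% and 36.1% were lower in endoderm. The lists were chosen with earlier results known. Of 5 other apolipoprotein genes tested, 4, 3 and 3 were higher in endoderm and 0, 1 and 2 lower. Apoa5 and Apoc4, the remaining genes of the clusters on chromosomes 9 and 7, were at 12.6, 17.2 and 17.3 and at 8.33, 9.45 and 10.3 CPM in endoderm. Against mesoderm they were higher by 5.97 (SE 0.53, adjusted p = 1.7e-06) and 5.22 (SE 0.54, adjusted p = 6.26e-06), on 2 mesoderm UMIs each. Clu, an apolipoprotein and chaperone, was higher in endoderm than in mesoderm by 1.28 (SE 0.19, adjusted p = 0.000119) but lower than in endothelium by -1.72 (adjusted p = 1.27e-06).

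Of 14 assembly and export genes, 9, 10 and 13 were higher in endoderm and 2, 2 and 1 lower. Their median log2 difference was small beside that of the members, at 0.48, 0.68 and 1.60. A1cf, a cofactor of the enzyme that edits Apob messenger RNA, was higher than in mesoderm by 4.89 (SE 0.29, adjusted p = 6.29e-08). Apobec1, the editing enzyme itself, named after its values were seen, had 0 UMIs in 551 endoderm cells, which allows up to 0.0935 CPM by counting error. Mia2, which helps large cargo leave the endoplasmic reticulum, was higher by 1.37 (SE 0.08), and Sort1, a sorting receptor that binds ApoB, was lower by -3.44 (SE 0.21). Sort1 stood at 1.94, 2.52 and 2.32 CPM in endoderm and at 34.1, 24.5 and 31.0 in mesoderm, and was lower in endoderm in all 3 comparisons.

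Genes that make the particles' lipid were mixed. Of the triglyceride and cholesterol ester list, 8 of 14, 9 of 15 and 11 of 16 were higher in endoderm and 4, 3 and 3 lower. Mogat2 and Dgat2, which add fatty acids to partial glycerides, were higher than in mesoderm by 2.60 (SE 0.11) and 2.97 (SE 0.15), and Acsl1, which activates fatty acids, by 2.69 (SE 0.14). Fasn, the fatty acid synthase gene, named after its values were seen, was lower in all 3 comparisons, by -0.65, -0.65 and -0.43 log2 units (adjusted p from edgeR 0.000683, 0.00176 and 0.00287). Of the uptake and storage list, 5 of 9, 6 of 8 and 6 of 8 were higher and 2, 1 and 1 lower. The fatty acid binding protein genes Fabp2 and Fabp1 were higher than in mesoderm by 5.16 (SE 0.36) and 4.61 (SE 0.39), and the lipid droplet gene Plin3 by 1.93 (SE 0.16). The adjusted p from edgeR was at most 1.18e-06 for the 6 genes named here as higher.

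Of the receptor list, without the gate gene Cubn, 5 of 8, 6 of 9 and 6 of 8 were higher in endoderm and 2, 3 and 1 lower. Amn was higher than in mesoderm by 5.16 (SE 0.19), the high-density lipoprotein receptor gene Scarb1 by 2.68 (SE 0.14) and the endocytic receptor gene Lrp2 by 1.70 (SE 0.12). Lrp1, a large endocytic receptor gene named here after its values were seen, had a mean of 13.6 CPM ± 1.99 in endoderm and of 66.7 ± 10.9 in mesoderm (SD, n = 3), with no overlap between the samples. It was lower in endoderm than in mesoderm by a log2 difference of -2.05 (SE 0.16, adjusted p = 5.26e-07 by edgeR) and higher than in endothelium by 1.75 and than in erythroid cells by 3.84.

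Genes that act on particles in plasma were split. Of that list, 2 of 6, 3 of 6 and 5 of 7 were higher in endoderm and 2 were lower in each comparison. Lpl, the lipoprotein lipase gene, was at 0.913, 0.700 and 0.443 CPM in endoderm and 15.5, 13.2 and 15.9 in mesoderm, a log2 difference of -4.16 (SE 0.29, adjusted p = 2.63e-07). Pltp, the phospholipid transfer protein gene, was lower by -4.30 (SE 0.43) and Lcat, the enzyme gene that esterifies cholesterol on high-density lipoprotein, higher by 3.23 (SE 0.52). Gpihbp1, which anchors lipoprotein lipase on vessel walls, gave 42 UMIs in endothelium and 1 in endoderm, and is named after its values were seen.

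Of 20 transcription factor genes listed for this pathway, 10 of 12, 10 of 13 and 12 of 13 tested were higher in endoderm and 1 was lower in each comparison, namely Nr2f2, Nr5a2 and Nr1h2, named after their values were seen. The medians of 4.64, 4.89 and 5.31 were close to those of the members. Hnf4a stood at 80.9, 64.4 and 70.8 CPM in endoderm and 0.910, 1.95 and 3.67 in mesoderm, a log2 difference of 5.25 (SE 0.24, adjusted p = 9.09e-09). Creb3l3, a membrane-bound factor of triglyceride metabolism, was higher by 5.16 (SE 0.22) and Foxa2, a forkhead factor of endoderm, by 5.20 (SE 0.30). Scaling by library size changed these list counts most in the assembly list against mesoderm, where 6 genes were higher and 4 lower. It did not turn the sign of any list's median. The Nr1h2 call against erythroid cells was lost with this scaling, where 0 transcription factor genes were lower in endoderm.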

How the data were processed

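The authors deposited raw UMI counts for each of 30970 genes and every cell of the 3 tagged samples, from Cell Ranger 6.1.2 per the file headers. GRCm38 and mm10 are named in the submitters' processing notes. The sources used here do not say how cells were assigned to tags. A transgene row was left out of the tests.

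Cells were not treated as replicates. Each class was summed within each tagged sample, and each pair of classes was fitted alone with edgeR 4.0.16 in R 4.3.3 (trimmed mean of M-values, filterByExpr, glmQLFit, glmQLFTest, two-sided, Benjamini-Hochberg over all genes tested). The SE is the size of the log2 difference over the root of F. Scripts were tested on simulated data. Sums of different classes within a tagged sample are paired by origin, and their deviations correlated by 0.02 to 0.22 over 3504 genes. Thinning drew 20000 UMIs per cell without replacement. Cells passing more than 1 gate were dropped as possible doublets. Scrublet in scanpy 1.11.5 called 89 kept cells, removed only in an alternative. Precision is limited by 3 tagged samples.

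Members, lists, gates and tests were chosen with earlier results of these data known. The text names all members, the 3 genes of each list with the smallest p against mesoderm, and the likest gene outside the set for each member where the mean r was at least 0.3. Other genes are marked as named after their values were seen, or come from markers and reference genes. Alternatives covered the replicate block, DESeq2 1.42.0, scaling, filters, gates, doublets, depth and each tagged sample left out.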

Additional observations from a re-analysis of the deposited data

How the results depend on the processing

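Every one of the 10 genes kept its call and direction in endoderm against each other class under the 16 alternatives. The tagged sample as a replicate block changed no call of a member in any of the 6 comparisons, and the totals of genes called stayed within 1.5 times in all 96 combinations of comparison and alternative. The median log2 difference over members against mesoderm was 5.42 and moved to 5.17 with library size scaling, 5.21 with totals without members, endoderm gate genes and globins, 5.89 with Scrublet doublets removed, 5.83 with doubled gates and 5.85 with halved gates. Against erythroid cells it was 5.56 and moved to 5.76 with library size scaling and 5.34 with doubled gates. The cause was not tested. The members called in mesoderm against endothelium went from 1 to 2 with doubled gates (Apoc1 added) and to 2 with thinned sums (Mttp added). In mesoderm against erythroid cells they went from 2 to 7 with library size scaling, 4 with Scrublet doublets removed, 4 with doubled gates (none of them Apoc1 or Apoe) and 5 with halved gates, and leaving out 1 tagged sample gave 2 to 4, with 4 without tagged sample 1 (Apoa4 and Apom added). Apoe reversed there to -0.50 with doubled gates. Mttp in endothelium against erythroid cells lost its call under library size scaling, totals without members, halved gates, thinned sums and without tagged sample 2 or 3. The median r over pairs of 0.22 moved to 0.17 at 10000 UMIs per cell and to 0.09 with all gates doubled. Of 40 class levels, 12 moved beyond 1 SD with doubled gates and 5 each with halved gates or Scrublet doublets removed. Apoc2 and Apoc3 were too thinly counted outside endoderm for a test in every pair of classes.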

Other observations

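Cells that passed no gate (196 cells) had the 10 genes at 0.0935%, 0.108% and 0.0978% of UMIs in the 3 tagged samples, between the shares of mesoderm and endothelium. In them Apoe stood at 403, 525 and 413 CPM, Apoa1 at 202, 231 and 262 and Apoc1 at 72.5, 60.1 and 38.7. The 49 cells that passed more than 1 gate had 0.777%, 0.734% and 0.443%, between endoderm and the other classes.

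Limits are as follows. The classes rest on gates set with these data in view, and 71 of the 551 endoderm cells lay under a doubled gate. How completely each gene's transcripts were counted was not measured, so ratios between genes were compared only between classes. Apoe above Apoa1 in a cell refers to counted UMIs, not to the number of transcripts in the cell. Transcripts do not show secreted protein or lipid. A single genotype at a single stage was sampled, so no change with time or treatment was measured. Free RNA was described by reference genes and was not removed.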
